A study of Mus musculus with 26 samples.

Results

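Transcripts of 8 costimulatory and inhibitory receptors of T cells were followed through the thymic development of natural killer T (NKT) cells. The genes were chosen by symbol, as every row named Cd28, Icos, Ctla4, Pdcd1, Lag3, Cd2, Cd5 or Cd6, and they are 8 of the 23168 genes with a value in all 26 libraries. Bulk RNA was measured in thymocytes of C57BL/6J wild-type mice of 6 to 8 weeks. The DN1eP precursors (4 libraries) came ex vivo from a sort for cells without lineage markers or surface Vα14Jα18 T cell receptor (TCR), as CD44+, CD25-, CD24low, CD5+, CD27+, Ly108- and CXCR3+. DN1eP-NKT cells (4 libraries) carried that receptor after 10 days of DN1eP culture on OP9/Dll-1 stroma with IL-2 and IL-7, each at 5 ng/ml. Thymic NKT cells bound a CD1d dimer loaded with the lipid αGalCer together with an antibody to TCRβ. They were sorted as stage 1 (NKT-1, CD44- and NK1.1-, 5 libraries), stage 2 (NKT-2, CD44+ and NK1.1-, 7 libraries) and stage 3 (NKT-3, CD44+ and NK1.1+, 6 libraries). CD5 protein was part of the DN1eP gate, so the presence of Cd5 RNA in that group is no finding, and the DN1eP-NKT cells are the only group that had been cultured. The labels do not say whether libraries of a group came from separate animals, so p-values measure only the spread between these samples. In bulk RNA, fewer cells carrying a transcript and less of it per cell cannot be told apart.

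NKT cells recognise lipids on CD1d and pass through stages in the thymus that are told apart by CD44 and NK1.1. CD28 and ICOS add costimulatory signals to those of the T cell receptor, CD28 after binding CD80 or CD86 and ICOS after binding ICOSL, and costimulation through CD28 is known to support the expansion of thymic NKT cells. CTLA-4 competes with CD28 for its ligands, PD-1 (from Pdcd1) recruits phosphatases after binding PD-L1 or PD-L2, and LAG-3 binds MHC class II, and all of these restrain activated T cells. CD2 is an adhesion receptor that binds CD48 in mice. CD5 and CD6 are related scavenger-receptor glycoproteins that dampen or tune signals of the T cell receptor, and surface CD5 on thymocytes is known to follow the strength of those signals.

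The deposited tables place 4 of the 8 genes on chromosome 1 of mm9. Cd28 spans chr1:60803232-60830203, Ctla4 chr1:60965869-60972674 and Icos chr1:61034758-61057164, with 0 other listed genes in the gaps of 135.665 kb and 62.083 kb between them, and Pdcd1 lies apart at chr1:95934882-95949130. Cd5 (chr19:10792633-10813464) and Cd6 (chr19:10863829-10904548) are 50.364 kb apart with 1 listed gene between them. Lag3 spans chr6:124854377-124861723 and Cd2 chr3:101079831-101091862. The RefSeq promoter table held 3 of the 8 members, and the 250 bases before their annotated start are shown. These genes have 3 different courses over the groups. Ctla4 is high in 3 of the 4 precursor libraries, and Pdcd1 falls into stage 3. Cd5 is higher in thymic stages than in precursors or cultured cells. Capitals mark matches on either strand to 8 motifs, which do not overlap in these windows. Coordinates of these windows are GRCm38.p6, and each sequence reads 5′ to 3′ on the strand of the gene.
Ctla4, plus strand, chr1:60908775-60909024: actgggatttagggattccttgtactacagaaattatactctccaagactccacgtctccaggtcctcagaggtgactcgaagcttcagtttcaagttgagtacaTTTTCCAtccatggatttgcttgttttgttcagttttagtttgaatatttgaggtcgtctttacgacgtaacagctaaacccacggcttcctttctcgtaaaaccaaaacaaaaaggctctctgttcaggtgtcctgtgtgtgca
Pdcd1, minus strand, chr1:94052554-94052803: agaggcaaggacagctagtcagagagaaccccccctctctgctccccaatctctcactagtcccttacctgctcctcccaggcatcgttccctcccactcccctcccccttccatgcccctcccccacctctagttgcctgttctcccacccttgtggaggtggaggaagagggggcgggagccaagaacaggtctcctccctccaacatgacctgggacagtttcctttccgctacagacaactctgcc
Cd5, minus strand, chr19:10738975-10739224: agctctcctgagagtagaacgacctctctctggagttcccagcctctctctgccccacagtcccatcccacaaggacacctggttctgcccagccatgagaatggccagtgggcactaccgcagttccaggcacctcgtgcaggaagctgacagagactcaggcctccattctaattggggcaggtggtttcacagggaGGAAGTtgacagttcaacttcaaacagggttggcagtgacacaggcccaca

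The Ctla4 window held 1 match to the NFAT motif TGGAAAA, on the opposite strand at 145 to 139 bases upstream, and 5.93% of 32851 RefSeq promoter windows of this length held that motif. The Cd5 window held 1 match to the ETS motif GGAAGT at 51 to 46 bases upstream, a motif found in 19.7% of the windows. Neither window matched the other motifs searched, and the Pdcd1 window matched none of the 8. Those were, with the share of windows that held them, RUNX (TGTGGT, 14.05%), AP-1 (TGANTCA, 6.75%), EGR (GTGGGCG, 7.02%), E-box (CAGCTG, 13.001%), TCF/LEF (CTTTGAA, 4.46%) and T-box (GGTGTGA, 3.33%). A match is a description of the letters and no evidence of binding.

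The libraries fell into 2 sets by the median FPKM (fragments per kilobase of transcript, scaled to the depth of the library) of those genes that reached 1 FPKM in it. In 13 libraries that median was 7.58 to 9.80 and in 13 it was 12.96 to 13.91. The lower-median set held all 4 DN1eP libraries and the higher-median set all 4 DN1eP-NKT libraries. The thymic libraries were split 3 and 2 in NKT-1, 3 and 4 in NKT-2 and 3 and 3 in NKT-3, lower-median first. Set was therefore a term of the main fit, and values within a set are given beside it. DN1eP and DN1eP-NKT share no set, so culture and set cannot be told apart between them, the term there rests on the 18 thymic libraries, and the fit without it is given as well. For genes of 20 to 100 FPKM the median half-width of the deposited interval was 6.07% to 24.2% of its centre, library by library. DN1eP library 1 (6.51%) had narrower intervals than libraries 2 to 4 (19.5% to 24.2%), and it is shown apart below. Its values of Cd28, Icos, Pdcd1 and Cd2 lay above their own intervals, as did Cd2 in libraries 2 to 4 and Pdcd1 in library 4. Narrow intervals therefore do not make library 1 the more reliable one.

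The T cell gene Cd3e was at 255 FPKM or more in every library, DN1eP included. The 8 genes of the NKT and T cell list summed to 4687 to 6833 FPKM in DN1eP and to 1253 to 1741 in DN1eP-NKT. Those groups lie in different sets, and the sum also parted by set within each thymic stage. Among lower-median libraries it was 4082 to 5281 FPKM for NKT-1, 3208 to 4425 for NKT-2 and 4552 to 6243 for NKT-3. Higher-median libraries of these stages had only 1887 to 2540, 1756 to 2910 and 3105 to 3603. Culture and set thus cannot be told apart in the DN1eP-NKT sums. Klrb1c, which encodes NK1.1, was at 440 to 563 FPKM in NKT-3 and at most 8.47 in NKT-1, as the gate asks. It was also at 170 to 495 FPKM in DN1eP. Foxp3, which defines regulatory T cells that carry CTLA-4 and ICOS, was at most 0.147 FPKM in DN1eP and at or near 0 in all 18 thymic libraries, and was 0.436 to 3.06 in DN1eP-NKT. Other cells left traces in some groups. The 6 fibroblast and stroma genes summed to 69.7 to 350 FPKM in DN1eP-NKT and to at most 1.57 in any other library. The 6 myeloid and mast cell genes summed to 305 FPKM in DN1eP library 1 and to at least 62.8 in the rest of DN1eP. Their sum had a median of 1.53 or less in each other group, but was 62.3 FPKM in NKT-2 library 6 and 33.5 in NKT-3 library 5. The 5 B cell genes summed to 20.8 to 46.0 FPKM in DN1eP, nearly all of it Cd79b, with Ms4a1 and Pax5 at 0 in all 4 libraries. They reached 135 FPKM in NKT-2 library 6 and 40.9 in NKT-3 library 5, and at most 10.6 in the other libraries outside DN1eP. Leaving both of these libraries out ended 1 call of a member, the lower Lag3 of NKT-3 against DN1eP (adjusted p = 0.0587). The 4 erythroid genes reached 326 FPKM in NKT-3 library 5, with group medians of at most 6.67, and the 6 genes of CD4 and CD8 positive thymocytes summed to at most 29.6 FPKM. The regulatory T cell list of 5 genes summed to 100.5 to 128 FPKM in cultured cells and to at most 33.96 elsewhere. Nearly all of the sum in cultured cells was Il2ra (92.7 to 113 FPKM). Ikzf2 was lower there than in DN1eP (0.990 to 6.14 against 8.50 to 24.5 FPKM). Ikzf4 was higher (4.55 to 7.45 against 0.152 to 0.274), and Gpr83 was at most 0.0300 in cultured cells. The part of stroma, myeloid, B cell or regulatory T cell transcripts in the results was not tested.

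Across all groups the transcripts ranged from near 0 to 804 FPKM. Icos, Pdcd1, Cd2 and Cd28 were abundant, Cd5 and Cd6 intermediate, and Ctla4 and Lag3 low. FPKM is a level per transcript length, so such comparisons between genes hold on this scale. The abundance order changed between groups. The highest median level in DN1eP was that of Cd2 (433 FPKM), in NKT-1 and NKT-2 that of Icos (422 and 532), and in NKT-3 and DN1eP-NKT again that of Cd2 (401 and 194).

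**Figure D1:**
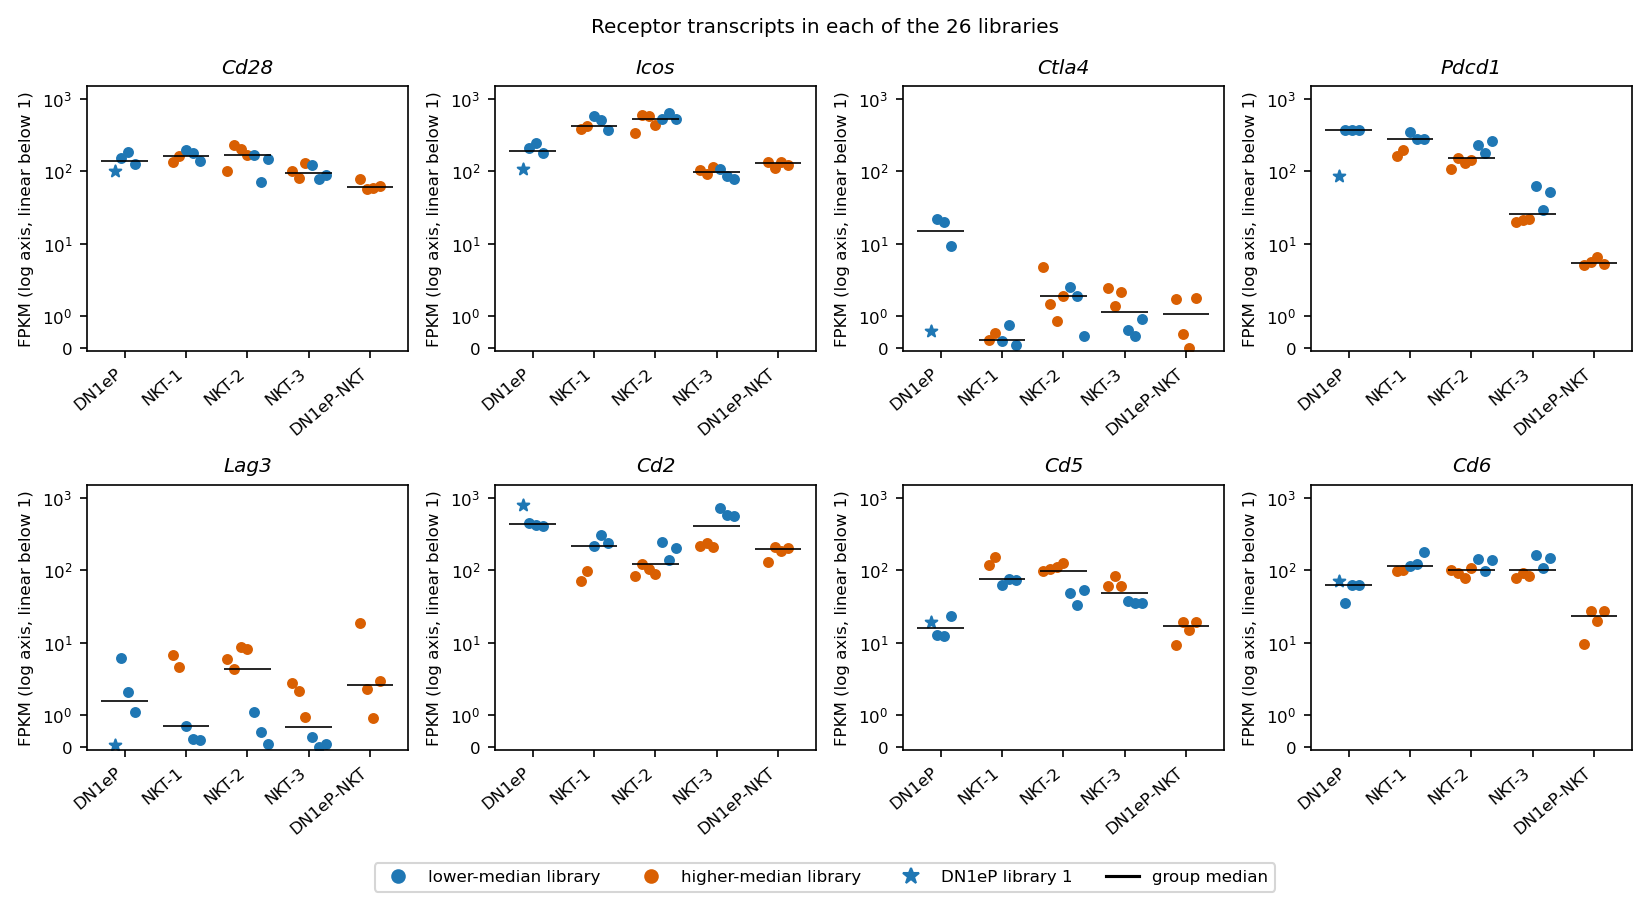
FPKM of each of the 8 receptor genes (log axis, linear below 1) in all 26 libraries by group, with lower-median libraries in blue, higher-median libraries in orange, DN1eP library 1 as a star and group medians as lines. Icos is at 342 FPKM or more in every stage 1 and stage 2 library and at most at 133 in every stage 3 and cultured library, and Pdcd1 is at 5.05 to 6.56 in the cultured cells.

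Every member passed the filter of 1 FPKM in at least 4 libraries and was tested with limma among 11663 genes, as a difference in log2(FPKM + 1) with Benjamini-Hochberg adjustment over all of them. Against DN1eP, 3 members rose and 2 fell in NKT-1, where 39.6% of all genes tested were called. The same counts, 3 and 2, were called in NKT-2, where the share of all genes was 36.3%. In NKT-3, 2 rose and 4 fell, against 22.8% of all genes. Between NKT-2 and NKT-1 limma called 0 of the 8 members and 0.797% of all genes, and at an unadjusted p under 0.05 it gave 1 member (Cd5) and 1247 of the 11663 genes. From NKT-1 to NKT-3 and from NKT-2 to NKT-3, 1 member rose and 4 fell, against 37.8% and 29.5% of all genes called. DN1eP-NKT had 5 members lower and 0 higher than DN1eP (32.1% of all genes called). Against NKT-1 and NKT-2 it had 1 member higher and 5 lower (21.7% and 20.6%), and against NKT-3 it had 4 lower (26.2%). The 4 comparisons with DN1eP share its libraries, and the 4 with DN1eP-NKT share theirs, so their counts are not independent. The median difference of the 8 members ran from -1.62 (DN1eP-NKT minus NKT-2) to 0.21 (NKT-1 minus DN1eP), and that of all genes tested from -0.17 to 0.09.

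**Figure D2:**
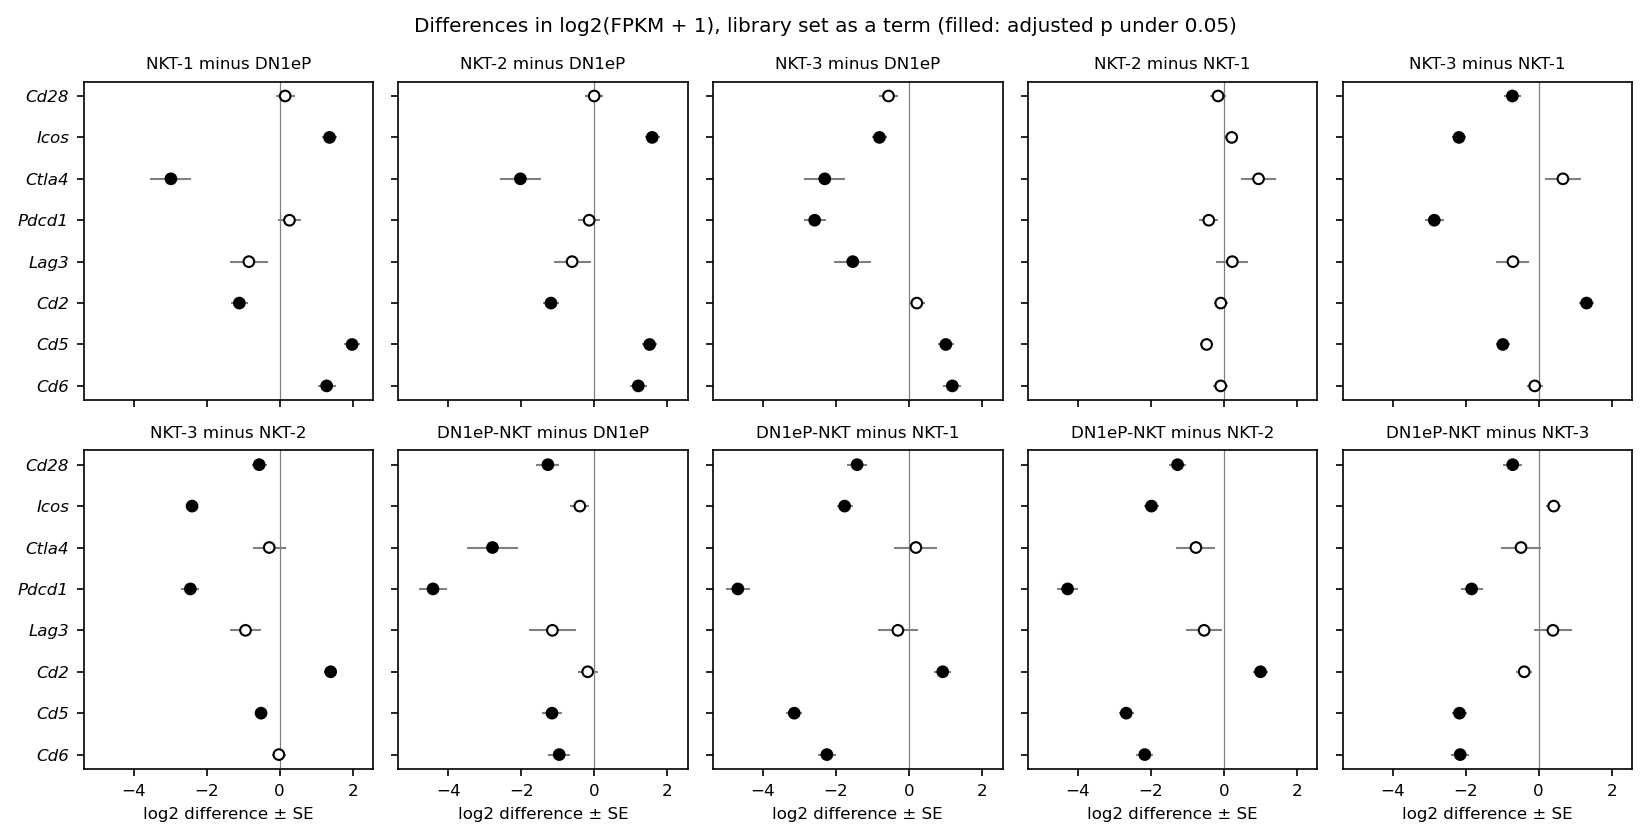
Difference in log2(FPKM + 1) with its standard error (horizontal axis) for the 8 receptor genes in the 10 pairwise comparisons, library set being a term of the fit, with filled points where the adjusted p was under 0.05. No point is filled for NKT-2 minus NKT-1, and 5 or 6 are filled in all but 1 of the other comparisons, DN1eP-NKT minus NKT-3 having 4.

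Of the costimulatory receptors, Icos had the sharpest course: high in stages 1 and 2 and low in stage 3. It was at 377, 422, 573, 508 and 365 FPKM in the 5 NKT-1 libraries. In NKT-2 it ran from 342 through a median of 532 to 628 FPKM, and in NKT-3 from 78.3 through 98.1 to 113. No NKT-3 library came near any library of the earlier stages. The means were 449 ± 88.9 (SD, n = 5), 517 ± 99.5 (n = 7) and 97.0 ± 13.5 FPKM (n = 6). Icos fell by 2.40 on the log2 scale from NKT-2 to NKT-3 (SE 0.17, adjusted p = 1.39e-11), and by 2.62 and 2.19 within the lower-median and the higher-median libraries.

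DN1eP precursors held intermediate Icos. Their 4 libraries were at 107, 208, 242 and 176 FPKM, library 1 being the lowest, and all lay below every NKT-1 and NKT-2 library. Icos rose by 1.37 (SE 0.21, adjusted p = 1.18e-05) from DN1eP to NKT-1, and was 0.81 lower on the log2 scale in NKT-3 than in DN1eP (adjusted p = 0.00589), with ranges that met only through DN1eP library 1. The cultured cells held 133, 109, 132 and 123 FPKM, close to the stage 3 range, and the difference from NKT-3 was 0.41 (SE 0.21, adjusted p = 0.156). They were lower than NKT-1 by 1.77 and lower than NKT-2 by 1.98 on the log2 scale. Against DN1eP their difference of -0.40 was not called (adjusted p = 0.250), and it was -0.63 with adjusted p = 0.0360 without DN1eP library 1.

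Cd28 varied least among the members with high levels. It was at 99.95, 151, 184 and 126 FPKM in DN1eP, at 135, 162, 193, 177 and 137 in NKT-1, and at 71.3 to 230 (median 169) in NKT-2. In NKT-3 the range was 78.1 to 129 FPKM (median 94.6), below every NKT-1 library but within the NKT-2 range. NKT-2 library 6, the lowest of its group, was also the one with B cell transcripts. Cd28 fell by 0.72 on the log2 scale from NKT-1 to NKT-3 (SE 0.22, adjusted p = 0.0125) and by 0.56 from NKT-2 (SE 0.21, adjusted p = 0.0403). Within sets the first was -0.82 and -0.54 and the second -0.36 and -0.72, lower-median first. Of these 4 values 1 was called, the last (adjusted p = 0.0396). The call from NKT-2 to NKT-3 was lost without NKT-2 library 2, 3, 4, 5 or 7 or NKT-3 library 1, 2, 5 or 6 (-0.55 to -0.46, adjusted p 0.0664 to 0.113). The same call did not hold without the set term (adjusted p = 0.106), with upper-quartile scaling (0.0517) or with only the compared groups in the fit (0.0751). Both the NKT-1 and the NKT-2 call were lost with no filter on low values (adjusted p = 0.0744 and 0.187) and with quantile normalization (-0.40 and -0.42).

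Cultured cells had the lowest Cd28 of the 5 groups. The 4 libraries held 76.9, 56.6, 58.4 and 62.3 FPKM, below every DN1eP, NKT-1 and NKT-3 library. Their mean was 63.6 ± 9.20 FPKM (SD, n = 4) against 140.1 ± 35.7 in DN1eP (n = 4), a fall of 1.27 on the log2 scale (SE 0.31, adjusted p = 0.00287) and of 1.10 without the set term (adjusted p = 0.00355). Cd28 was also lower than in NKT-1 (-1.42) and NKT-2 (-1.27). The difference from NKT-3 was smaller (-0.71, adjusted p = 0.0396) and was lost without DN1eP-NKT library 2, 3 or 4 or NKT-3 library 1, 3 or 4 (-0.72 to -0.62, adjusted p 0.0624 to 0.108) and also without the set term (-0.62, adjusted p = 0.101) or the filter on low values (adjusted p = 0.156). Cd28 in DN1eP did not differ from NKT-1 (0.15) or NKT-2 (-0.0046) past the threshold. Its difference in NKT-3 from DN1eP was -0.56 with adjusted p = 0.109, or -0.71 with 0.0441 without DN1eP library 1.

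Of the inhibitory receptors, Pdcd1 changed most. It was at 372, 367 and 367 FPKM in DN1eP libraries 2, 3 and 4 and at 85.2 in library 1. NKT-1 held 161, 193, 347, 278 and 280 FPKM, and NKT-2 106 to 262 (median 151). NKT-3 held 19.8 to 62.3 FPKM (median 25.2) and the cultured cells 5.05, 5.52, 6.56 and 5.29. The NKT-3 range lay below all of DN1eP, NKT-1 and NKT-2, and the cultured cells lay below all other libraries. From NKT-1 to NKT-3 Pdcd1 fell by 2.86 on the log2 scale (SE 0.27, adjusted p = 2.19e-09), and from NKT-2 by 2.44 (SE 0.24, adjusted p = 9.65e-09). Within the lower-median set these differences were -2.71 and -2.27, and within the higher-median set -3.03 and -2.60.

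The Pdcd1 step from DN1eP to stages 1 and 2 hung on DN1eP library 1. With all libraries the differences of NKT-1 and NKT-2 from DN1eP were 0.27 and -0.14 (adjusted p = 0.509 and 0.754). Without library 1 they were -0.25 (adjusted p = 0.312) and -0.67 (adjusted p = 0.00707), so that NKT-2 was then called lower. NKT-3 was lower than DN1eP by 2.59 on the log2 scale with library 1 (adjusted p = 2.99e-06) and by 3.11 without it (adjusted p = 7.16e-12). In cultured cells the mean was 5.61 ± 0.67 FPKM against 298 ± 142 in DN1eP (SD, n = 4 each), 0.0188 times the level. The difference was -4.42 (SE 0.37, adjusted p = 1.77e-09), -5.29 without the set term and -4.94 without DN1eP library 1. The cultured cells were also lower than each thymic stage within the higher-median set, with differences of -4.75, -4.33 and -1.73 from NKT-1, NKT-2 and NKT-3.

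Ctla4 was a low transcript everywhere except in 3 of the 4 precursor libraries. DN1eP libraries 2, 3 and 4 held 21.6, 20.1 and 9.21 FPKM and library 1 held 0.536. NKT-1 held 0.251, 0.467, 0.219, 0.719 and 0.0820 FPKM. The range was 0.371 to 4.81 (median 1.86) in NKT-2 and 0.385 to 2.42 (median 1.15) in NKT-3, and the cultured cells held 1.71, 0.425, 1.76 and a listed 0. Because of library 1 the DN1eP range overlapped that of every other group, and without it no library of another group reached the precursors.

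Ctla4 was lower than in DN1eP by 2.98 on the log2 scale in NKT-1 (SE 0.56, adjusted p = 0.000197), by 2.03 in NKT-2 (adjusted p = 0.00583) and by 2.31 in NKT-3 (adjusted p = 0.00414). Within the lower-median libraries the differences were -2.82, -1.95 and -2.54, and that of NKT-2 was not called there (adjusted p = 0.0794), nor with only the compared groups in the fit (adjusted p = 0.126). In cultured cells the fall from DN1eP was 2.79 (SE 0.69, adjusted p = 0.00331), and 2.36 without the set term (adjusted p = 0.00276). The scale of log2(FPKM + 1) understates changes of so low a transcript. With a pseudocount of 0.1 the difference was -4.51 for NKT-1 and -4.28 for the cultured cells. Among the other 4 groups no Ctla4 difference was called, the widest being 0.95 from NKT-1 to NKT-2 (SE 0.48, adjusted p = 0.490). With only the compared groups in the fit, NKT-3 was called higher than NKT-1 (0.66, adjusted p = 0.0247).

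Lag3 was split by library set more than by stage. The NKT-1 libraries of the higher-median set held 6.65 and 4.52 FPKM and those of the lower-median set 0.649, 0.249 and 0.234. In NKT-2 the sets held 4.30 to 8.73 and 0.105 to 1.10 FPKM, and in NKT-3 0.945 to 2.78 and 0 to 0.329. The sets did not overlap in any stage, and the ratio of their means was 14.8, 12.3 and 13.9 in stages 1, 2 and 3. Within either set NKT-3 had the lowest mean (0.141 and 1.96 FPKM), and no difference between stages was called within a set or with the set term. With only the compared groups in the fit, NKT-3 was called lower than NKT-1 (-0.68, adjusted p = 0.0333) and NKT-2 (-0.94, adjusted p = 0.00690).

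DN1eP held 0.0582, 6.18, 2.07 and 1.09 FPKM of Lag3, and the cultured cells 18.4, 2.29, 0.899 and 2.96. The value of 18.4 in DN1eP-NKT library 1 was the highest of all 26 libraries. The difference between these groups was -1.15 with the set term (adjusted p = 0.170) and 0.82 without it (adjusted p = 0.388), so its direction turned with the fit. It was -1.83 without DN1eP-NKT library 1 (adjusted p = 0.00795) and -1.59 without DN1eP library 1 (adjusted p = 0.0444). The comparison of NKT-3 with DN1eP was the only one that was called for Lag3 (-1.54, SE 0.51, adjusted p = 0.0305). It was lost without DN1eP library 2 (-1.06, adjusted p = 0.150) or library 3 (-1.47, adjusted p = 0.0803), without the set term (-0.56, adjusted p = 0.592) and within the lower-median libraries (-1.22, adjusted p = 0.0980). The call was also lost with no filter on low values (adjusted p = 0.105) and with only the compared groups in the fit (adjusted p = 0.132). With a pseudocount of 0.1 it was -2.79 (adjusted p = 0.0142). NKT-1 minus DN1eP (-1.28, adjusted p = 0.0480) was called only without DN1eP library 1, and DN1eP-NKT minus NKT-2 (-1.22, adjusted p = 0.0342) only without DN1eP-NKT library 1.

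Cd2, the adhesion receptor, ran opposite to Icos over the stages: higher in precursors and stage 3 than in stages 1 and 2. DN1eP libraries 2, 3 and 4 held 449, 417 and 407 FPKM and library 1 held 804. In the lower-median set NKT-1 held 218, 308 and 237 FPKM, NKT-2 242, 137 and 200.04, and NKT-3 711, 571 and 568.4. In the higher-median set the values were 69.98 and 96.0 in NKT-1, 81.9, 121, 105 and 89.7 in NKT-2, and 213, 234 and 211 in NKT-3. Within each set every NKT-3 library was above every NKT-1 and NKT-2 library. Cd2 rose from NKT-1 to NKT-3 by 1.31 (SE 0.20, adjusted p = 5.09e-06) and from NKT-2 to NKT-3 by 1.40 (SE 0.18, adjusted p = 6.68e-07). Within sets the rises were 1.28 and 1.41 from NKT-1 and 1.70 and 1.15 from NKT-2, all called.

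Against DN1eP, Cd2 was lower in NKT-1 by 1.10 on the log2 scale (adjusted p = 0.000326) and in NKT-2 by 1.19 (adjusted p = 0.000143), with no overlap of the ranges. Without the set term the NKT-2 difference was -1.93. The NKT-3 difference from DN1eP was 0.21 (adjusted p = 0.529), and -0.44 without the set term. The cultured cells held 128, 208, 184 and 203 FPKM, below every DN1eP library. This gap was -1.48 without the set term (adjusted p = 0.0113) and -0.18 with it (adjusted p = 0.650). In thymic cells the higher-median libraries held 0.326 to 0.514 times the Cd2 of the lower-median ones. Against stages 1 and 2 within the higher-median set, cultured cells had more Cd2, by 1.10 and 0.85 (adjusted p = 0.00201 and 0.00262). These calls were lost over all libraries without the set term (0.14 and 0.45, adjusted p = 0.818 and 0.448). Against NKT-3 in that set the difference was -0.30 (adjusted p = 0.267). With quantile normalization Cd2 was also called as 0.53 lower in cultured cells than in NKT-3 and 0.51 higher in NKT-3 than in DN1eP.

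Cd5 was low in precursors, had its highest mean in stage 1 within either set, and was low again after culture. Over both sets the median was 74.3 FPKM in NKT-1 and 97.2 in NKT-2, and the difference between these stages was not called. DN1eP held 19.2, 12.7, 12.3 and 23.4 FPKM, in cells gated on CD5 protein. In the lower-median set NKT-1 held 62.5, 74.3 and 72.9 FPKM, NKT-2 48.1, 32.7 and 53.9, and NKT-3 37.6, 35.1 and 35.3. The higher-median set held 119 and 150 in NKT-1, 97.2, 103, 109 and 127 in NKT-2, and 59.5, 82.1 and 59.9 in NKT-3. Every stage library was above every DN1eP library, and in both sets every NKT-3 library was below every NKT-1 library. Cd5 rose from DN1eP to NKT-1 by 1.99 (SE 0.21, adjusted p = 3.54e-08), to NKT-2 by 1.51 and to NKT-3 by 1.01 (1.53 without the set term).

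Between stages Cd5 fell by 0.98 on the log2 scale from NKT-1 to NKT-3 (SE 0.19, adjusted p = 0.000126), with -0.93 and -1.0001 within the sets and adjusted p = 0.0727 without the set term. The fall of 0.51 from NKT-2 to NKT-3 (adjusted p = 0.0247) was called in the higher-median set (-0.70, adjusted p = 0.0280) and not in the lower-median set (-0.28, adjusted p = 0.651). It was lost without NKT-2 library 4 or NKT-3 library 1 or 3 (-0.45 each, adjusted p 0.0552 to 0.0684), and without the set term (adjusted p = 0.281), with no filter (0.134) and with upper-quartile (0.0591) or quantile scaling (0.0907). Between NKT-1 and NKT-2 the difference was -0.47 with unadjusted p = 0.0147 and adjusted p = 0.312. Cultured cells held 9.26, 19.1, 14.7 and 19.2 FPKM, within the precursor range but for library 1. The difference from DN1eP was -1.16 with the set term (adjusted p = 0.00126) and -0.11 without it (adjusted p = 0.819). Against stages in the higher-median set Cd5 was lower by 3.08, 2.78 and 2.08 on the log2 scale, and every cultured library lay below every thymic one.

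Cd6 followed Cd5 from precursors into the thymic stages but did not fall between them. DN1eP held 70.3, 34.9, 63.0 and 63.3 FPKM, and NKT-1 97.6, 101, 115, 121 and 178. NKT-2 held 78.1 to 143 FPKM (median 101) and NKT-3 77.7 to 161 (median 98.95). All 18 thymic libraries were above all 4 DN1eP libraries, and the 3 stages overlapped. Cd6 rose from DN1eP by 1.29, 1.20 and 1.18 in NKT-1, NKT-2 and NKT-3 (SE 0.24 each, adjusted p = 0.000147, 0.000291 and 0.000993). Between stages the differences were -0.11 to -0.02, with the NKT-3 minus NKT-2 difference at -0.02 ± 0.20 (SE).

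The cultured cells had the lowest Cd6 of all libraries, at 9.59, 27.7, 19.7 and 26.9 FPKM. Cd6 was lower than in the thymic stages by 2.15 to 2.25 on the log2 scale (adjusted p 2.74e-08 to 8.54e-08). Against DN1eP the fall was 0.96 (SE 0.30, adjusted p = 0.0149), 1.48 without the set term, and -0.64 without DN1eP-NKT library 1, where it was not called (adjusted p = 0.0563). It was also not called with upper-quartile scaling (-0.72, adjusted p = 0.0667) or with no filter on low values (adjusted p = 0.0740).

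**Figure D3:**
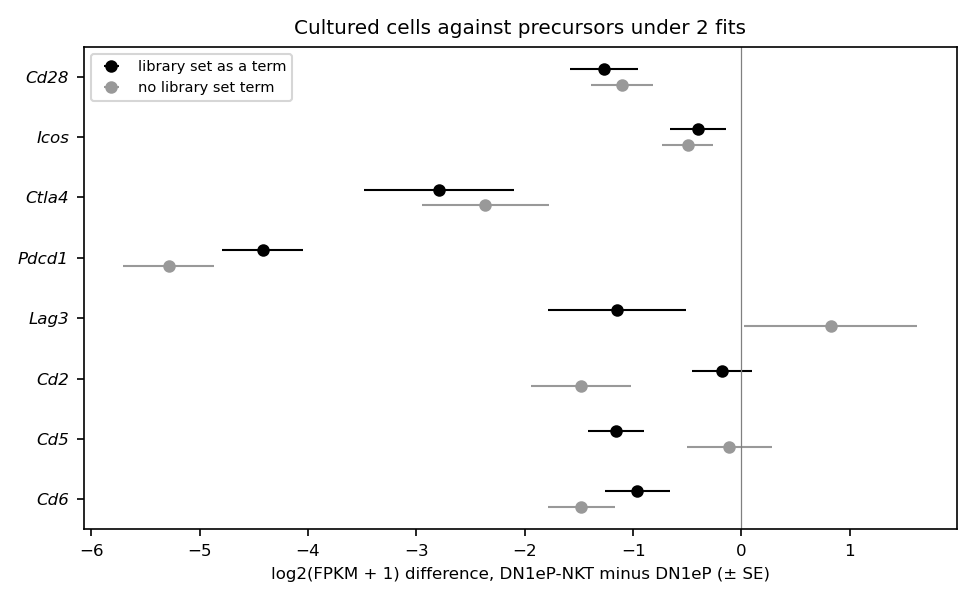
Difference in log2(FPKM + 1) between cultured DN1eP-NKT cells and DN1eP precursors, with its standard error, with the library set term in the fit (black) and without it (grey). Both fits give Pdcd1, Ctla4, Cd28 and Cd6 as lower in the cultured cells, and the fits part for Lag3 (-1.15 and 0.82), Cd2 (-0.18 and -1.48) and Cd5 (-1.16 and -0.11).

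The thymic stages are the only groups that lie in both sets, and they show how far the set moved each member. Cd28 (ratios of higher-median to lower-median means of 0.877, 1.36 and 1.08 in stages 1, 2 and 3) and Icos (0.829, 0.861 and 1.13) overlapped between sets in every stage. Pdcd1 (0.587, 0.590 and 0.439) and Cd2 (0.326, 0.514 and 0.356) were lower in the higher-median libraries without overlap. Cd5 (1.93, 2.43 and 1.86) was higher there without overlap, as was Lag3. Cd6 was lower (0.717, 0.742 and 0.611), overlapping in stage 2. Ctla4 was 1.06, 1.40 and 3.25 times as high there, without overlap in stage 3. A test of whether stage differences depended on set (limma F test, 18 thymic libraries) called 0 of 8 members and 0.48% of all genes. The lowest p of a member was that of Lag3 (unadjusted 0.0539, adjusted 0.656), and 0 of 8 were below 0.05 unadjusted.

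**Figure D4:**
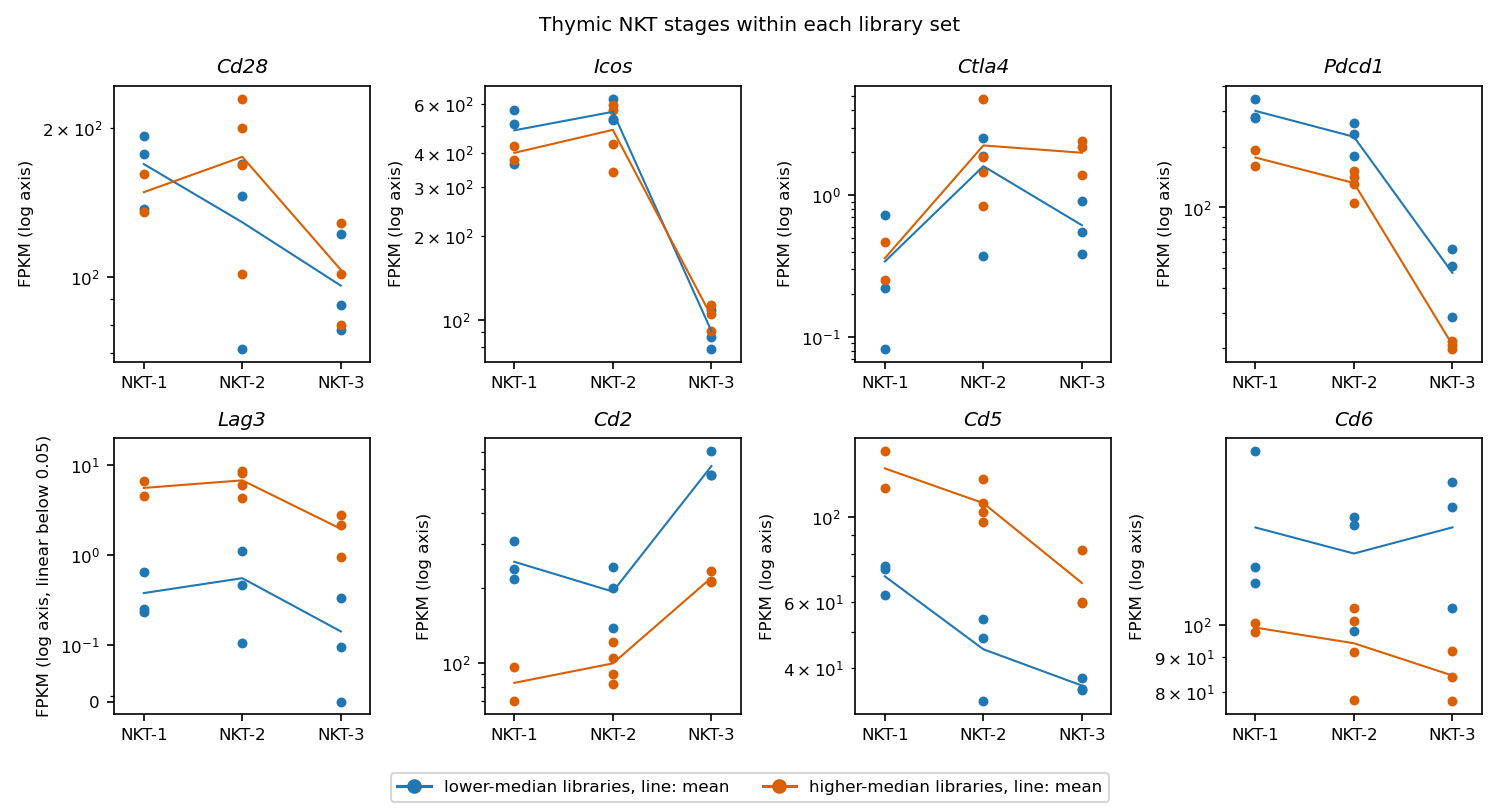
FPKM of the 8 receptor genes (log axes, that of Lag3 linear below 0.05) in the 18 thymic libraries by stage, with lower-median libraries in blue, higher-median libraries in orange and lines through the set means. The fall of Icos and Pdcd1 and the rise of Cd2 into stage 3 appear in both sets, while the sets lie apart for Lag3, Cd2 and Cd5.

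Among themselves, the members formed a few similar courses. Over the 26 libraries, with the set coefficient subtracted from log2(FPKM + 1), Cd5 and Cd6 correlated at r = 0.936 (0.846 and 0.967 within the lower-median and higher-median sets). Icos and Cd2 were opposed (r = -0.887, within sets -0.922 and -0.857). Pdcd1 correlated with Cd28 (0.858, within sets 0.731 and 0.886) and with Icos (0.750, within sets 0.730 and 0.888). The neighbours Cd28 and Ctla4 gave 0.264 and the neighbours Ctla4 and Icos -0.02. These are descriptions over 26 libraries that share 5 groups.

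Genes with the most similar course were looked for among 7755 genes with a mean of at least 5 FPKM, by the same correlation. Pdcd1 was closest to Tox (r = 0.970), a nuclear factor of T cell development, then to Dpp4 (0.956), which encodes the peptidase CD26, and Ccr9 (0.931), a chemokine receptor of thymocytes. Tox was at a median of 94.6 FPKM in DN1eP, 96.0 in NKT-1, 68.2 in NKT-2, 26.1 in NKT-3 and 11.3 in cultured cells. Cd28 was closest to the tetraspanin gene Cd9 and to Tox (0.922 each), then to 2610029I01Rik (0.882). Icos was closest to Adk (0.937), the adenosine kinase gene, Pcsk1 (0.929), a prohormone protease gene, and Lgmn (0.928), which encodes legumain. The Pcsk1 medians were 13.6 and 31.6 FPKM in NKT-1 and NKT-2, 3.16 in DN1eP and 0.459 in NKT-3.

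Cd2 was closest to Entpd1 (r = 0.929), which encodes the ectonucleotidase CD39. Il2rb (0.927), a receptor chain for IL-2 and IL-15, and Klre1 (0.925), a killer-lectin-like receptor, came next. As deposited, the medians of Entpd1 (7.14 to 13.1 FPKM) and Il2rb (298 to 512) rose from DN1eP to cultured cells. Those of Cd2 (433 to 194 FPKM) and Klre1 fell in that step. Klre1 was at medians of 120 FPKM in DN1eP, 0.133 in NKT-1, 1.19 in NKT-2, 233 in NKT-3 and 39.6 in cultured cells. Cd5 was closest to Fam3c (0.946), Tacc2 (0.945) and Gpnmb (0.931), and Cd6 to Pacsin1 (0.929), Lbh (0.919) and again Gpnmb (0.900). As deposited, Lbh was at 4.45 to 8.20 FPKM in DN1eP and 48.7 to 63.4 in cultured cells. Pacsin1 was at 0.396 to 0.992 and 1.51 to 1.91. Their deposited levels thus ran opposite to Cd6 in that step, and the r given is with the set coefficient subtracted. Ctla4 was closest to Dgat1 (0.903), Il17f (0.897), a cytokine gene, and Tob2 (0.895). Il17f, like Ctla4, was high in DN1eP but for 1 library, from 2.16 through a median of 152 to 200 FPKM, and was listed at 0 in all 4 cultured libraries. For Lag3 the closest were Tnni1 (0.734), Ccnt1 (0.721) and Slc35e2 (0.704). As deposited, the medians of these genes fell from DN1eP to cultured cells (33.1 to 0, 38.9 to 9.66 and 9.87 to 4.12 FPKM). The Lag3 median rose there from 1.58 to 2.62 FPKM, and the r given is with the set coefficient subtracted.

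Ligands and B7-family genes were followed as a list of 16, of which 11 passed the filter, so counts cover those 11 only. In stage 3, 3 of them rose and 0 fell against NKT-1, where 37.8% of all genes were called, and likewise against NKT-2 (29.5%). Both counts are a smaller share of the 11 than that of all genes called. Icosl, which encodes the ligand of ICOS, was at 0 to 0.356 FPKM in NKT-1, 0 to 6.69 in NKT-2 (median 0.611), and 5.13 to 9.84 in NKT-3. Its rise from NKT-1 to NKT-3 was 2.92 (adjusted p = 3.76e-08, 2.64 and 3.16 within sets), while Icos fell. Icosl was highest in the cultured cells, at 17.6 to 25.9 FPKM, where stroma genes were also present, and their part in it was not tested. Cd48, the ligand of CD2, rose with Cd2 from NKT-1 to NKT-3 by 1.49 (adjusted p = 9.37e-06), from a median of 90.6 to 298 FPKM. Cd274, which encodes PD-L1, was lower than in DN1eP (19.4 to 39.6 FPKM) by 1.75 on the log2 scale in NKT-2, 1.62 in NKT-3 and 1.29 in cultured cells. In NKT-1 it was at 6.82 to 19.3 FPKM, also below the DN1eP range. Btla, an inhibitory receptor gene on the same list, was 1.24 higher in NKT-1 than in DN1eP (adjusted p = 0.00450) and 1.75 lower in cultured cells than in NKT-1. Against DN1eP the list gave 1 higher and 6 lower in NKT-1 (39.6% of all genes called), 1 and 4 in NKT-2 (36.3%), 0 and 3 in NKT-3 (22.8%), and 1 and 2 in cultured cells (32.1%). The median of the 11 in those comparisons was -1.23, -0.07, -0.45 and 0.13.

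Of 12 other surface receptors, all tested, 7 rose and 2 fell from NKT-2 to NKT-3 (29.5% of all genes called), and 6 rose and 1 fell from NKT-1 (37.8%). Their median differences were 0.66 and 0.69, against -0.06 and -0.17 over all genes. Tigit, an inhibitory receptor, was at 0 to 1.30 FPKM in NKT-2 and 6.60 to 23.5 in NKT-3, a rise of 3.13 (adjusted p = 8.32e-08). Cd101 rose by 2.16 in the same step. Cd200, a ligand of an inhibitory receptor, fell by 2.96, from a median of 8.12 to 0.182 FPKM. Against DN1eP, 1 of the 12 was higher and 6 lower in NKT-1 (39.6% of all genes called), 1 and 5 in NKT-2 (36.3%), and 0 and 3 in NKT-3 (22.8%). In cultured cells 4 rose and 4 fell against DN1eP, where 32.1% of all genes were called. Cd200r1, the receptor of CD200, was at 21.2 to 29.2 FPKM there and 2.43 to 3.65 in DN1eP (3.30 higher, adjusted p = 1.93e-06, and 2.72 without the set term). Havcr2, which encodes the inhibitory receptor TIM-3, was at 9.07 to 15.0 FPKM in cultured cells and at most 0.557 in any thymic stage. In DN1eP it ran from 0.0386 through a median of 1.57 to 8.79 FPKM. Cd84, a SLAM-family receptor, fell by 1.87 on the log2 scale from DN1eP to cultured cells.

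Of 21 cytoplasmic partners, all tested, 0 rose and 10 fell from DN1eP to cultured cells (32.1% of all genes called), with a median of -0.50 against -0.05 over all genes. Trat1, an adaptor of the T cell receptor complex, fell by 1.97 (adjusted p = 0.000219, and 2.26 without the set term), from a median of 61.9 to 11.4 FPKM. Against DN1eP, 1 was higher and 8 lower in NKT-1 (39.6% of all genes called), 1 and 10 in NKT-2 (36.3%), and 2 and 6 in NKT-3 (22.8%). From NKT-2 to NKT-3, 7 rose and 1 fell (29.5%), and from NKT-1, 6 rose and 2 fell (37.8%). Ubash3a, a phosphatase gene that restrains T cell receptor signals, rose by 2.48 from NKT-2 to NKT-3 (adjusted p = 7.94e-10), from a median of 3.51 to 23.1 FPKM. Ptpn6, which encodes the phosphatase SHP-1 linked to CD5 and other inhibitory receptors, was lower in cultured cells than in NKT-3 by 2.05 on the log2 scale, at 70.9 to 78.3 FPKM against 257 to 354. Between NKT-2 and NKT-1 limma called 0 genes of the ligand, receptor or cytoplasmic lists, and 3, 1 and 2 of their members were below an unadjusted p of 0.05.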

How the data were processed

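RNA from 26 thymocyte libraries was analysed from the FPKM values, and their intervals, that the authors deposited. Reads were aligned to mm9, with TopHat2 2.0.6 and Cufflinks 2.1.1 named in the submitters' processing notes. Per the labels' protocols, libraries were made with 1 of 2 kits (SMARTer Ultra Low Input or TruSeq v2), without saying which library had which. The tables hold no read counts, so precision is given by the deposited intervals. Of 208 member values 141 lie inside their own interval (51 of 104 in the lower-median set).

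FPKM of rows that share a symbol were added up. Left out were 86 symbols not listed in every file and 13 whose estimate a file marked as failed or too deep. No pair of libraries was identical. The 11663 genes that reached 1 FPKM in 4 or more libraries were fitted jointly as log2(FPKM + 1) with limma (version 3.58.1 under R 4.3.3, with a variance trend and robust shrinkage). Terms were group and library set (median FPKM above or below 11). Benjamini-Hochberg adjusted p-values under 0.05 were called. Groups came from the labels.

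The members, lists, library sets and tests were chosen with earlier results of these data known. All members are named, with up to 2 called genes of a pathway list per direction and comparison, of which a part is printed, and the 3 genes with the most similar course. The lists cover ligands and B7-family genes, other surface receptors and cytoplasmic partners. Alternatives were no set term, either set alone, a pseudocount of 0.1, no filter, upper-quartile scaling, quantile normalization, a replicate block, only the compared groups, and leaving out libraries. Replicate numbers did not meet the criterion for pairing libraries.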

Additional observations from a re-analysis of the deposited data

Results flagged for a closer look

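Of 40 sets of 4 to 7 libraries (8 genes in 5 groups), 3 held a library far from the others, by the gap to its nearest neighbour over the whole range of the group. Chance flags about 1 in 20 such sets. Pdcd1 in DN1eP library 1 was at 85.2 FPKM against 367 to 372 in libraries 2 to 4, a gap of 0.983 of the range. Cd2 in the same library was at 804 FPKM against 407 to 449, a gap of 0.894 of the range. Lag3 in DN1eP-NKT library 1 was at 18.4 FPKM against 0.899 to 2.96 in libraries 2 to 4, a gap of 0.882 of the range. In both groups library 1 was also the one with the narrowest deposited intervals, at a median half-width of 6.51% in DN1eP and 7.47% in DN1eP-NKT, against 16.2% or more in the others.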

How the results depend on the processing

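Over the 80 member differences, a pseudocount of 0.1 left all 80 on the same side of zero and of the threshold. The same held for 63 without the library set term, 74 with no filter on low values, 73 with upper-quartile scaling, 68 with quantile normalization, 65 with a replicate block and 74 without both NKT-2 library 6 and library 5 of NKT-3. It held for 41 of 48 in the lower-median and 44 of 48 in the higher-median libraries alone, 66 of 72 with only the compared groups, and 782 of 832 with 1 library left out. DN1eP-NKT minus DN1eP could not be fitted within a set or with only the compared groups. The number of members called from NKT-2 to NKT-3 dropped from 5 to 3 without the set term, in the lower-median libraries, with no filter, and with upper-quartile or quantile scaling, and was 3 to 5 with 1 library left out (3 without NKT-2 library 4 or NKT-3 library 1). Samples shared only a number: same-numbered libraries deviated together at a median correlation of 0.03 (-0.38 to 0.49, 13 of 44 pairs over 0.1, against 34 of 223 differently numbered pairs), and 7 of 25 libraries correlated best with their own number. With that number as a replicate block, 2 members were called for NKT-2 minus DN1eP (5 without it), 2 for NKT-3 minus DN1eP (6) and 3 for DN1eP-NKT minus DN1eP (5), and 2163, 1281 and 2385 genes in all (4232, 2656 and 3748 without it). The calls not made under the block were Ctla4, Cd2 and Cd6 in NKT-2 minus DN1eP (adjusted p = 0.184, 0.1004 and 0.108), Icos, Ctla4, Lag3 and Cd6 in NKT-3 minus DN1eP (0.129, 0.0938, 0.389 and 0.0782), and Cd28 and Ctla4 in DN1eP-NKT minus DN1eP (0.0686 and 0.0671). The differences that turned direction were called in neither fit, and the cause was not tested. Without the set term these were Pdcd1 NKT-1 minus DN1eP (-0.076), Cd28, Lag3 and Cd2 for NKT-2, NKT-2 and NKT-3 minus DN1eP (0.091, 0.52 and -0.44), Cd6 NKT-3 minus NKT-2 (0.017), and Lag3 in DN1eP-NKT minus DN1eP, NKT-1 and NKT-2 (0.82, 0.88 and 0.31). With upper-quartile scaling they were Cd28 and Pdcd1 NKT-2 minus DN1eP (0.18 and 0.040), Cd6 NKT-3 minus NKT-2 (0.032) and Cd2 DN1eP-NKT minus DN1eP (0.047). With quantile normalization they were Cd28 and Pdcd1 NKT-2 minus DN1eP (0.051 and 0.023), Cd28, Cd2 and Cd6 NKT-2 minus NKT-1 (0.022, 0.10 and 0.065), and Cd6 NKT-3 minus NKT-1 and NKT-2 (0.19 and 0.12). With the replicate block they were Cd28 and Lag3 NKT-2 minus DN1eP (0.40 and 0.026), Cd28 and Cd2 NKT-2 minus NKT-1 (0.050 and 0.13), Cd6 NKT-3 minus NKT-2 (0.0502) and Cd2 DN1eP-NKT minus DN1eP (0.15). Without both NKT-2 library 6 and library 5 of NKT-3 they were Cd28 and Pdcd1 NKT-2 minus DN1eP (0.28 and 0.021) and Cd28, Cd2 and Cd6 NKT-2 minus NKT-1 (0.051, 0.058 and 0.013). In the lower-median libraries Cd6 NKT-3 minus NKT-1 and NKT-2 turned (0.0064 and 0.12), and in the higher-median libraries Cd28 and Cd2 NKT-2 minus NKT-1 (0.18 and 0.26) and Ctla4 NKT-3 minus NKT-2 (0.0059). With 1 library left out, Cd2 DN1eP-NKT minus DN1eP ran from -0.28 to 0.049, Ctla4 and Lag3 DN1eP-NKT minus NKT-1 from -0.017 to 0.47 and from -0.99 to 0.13, and Lag3 DN1eP-NKT minus NKT-3 from -0.29 to 0.83. Likewise Cd28 ran from -0.15 to 0.25 (NKT-2 minus DN1eP) and -0.26 to 0.038 (NKT-2 minus NKT-1), Cd2 from -0.21 to 0.055 and Cd6 from -0.15 to 0.0028 (both NKT-2 minus NKT-1), Cd6 from -0.098 to 0.036 (NKT-3 minus NKT-2), and Pdcd1 from -0.25 to 0.45 and -0.67 to 0.038 (NKT-1 and NKT-2 minus DN1eP). The median of all genes for DN1eP-NKT minus DN1eP was 0.50 without the set term and -0.05 with it, and quantile normalization moved that of NKT-3 minus NKT-1 from -0.17 to -0.0019.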
